A study of Mus musculus with 4 samples.

Results

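PPARγ, encoded by Pparg, is a nuclear receptor that binds fatty acids and, as a heterodimer with RXR, drives genes of lipid uptake and storage. Activated lung ILC2s, the tissue-resident lymphocytes that release type 2 cytokines, are known to express it, to take up fatty acids from outside and to keep them for a time in lipid droplets. Fatty acids are freed from lipoproteins by LPL, cross the membrane with the help of CD36, are carried in the cytosol by FABP4 and FABP5, are activated to acyl-CoA by enzymes such as ACSL4, are built into triglyceride by DGAT1 and DGAT2, and are held in droplets coated by PLIN2. These 9 genes were picked by name from the deposited tables, which list 22558 genes. All 9 members were found in both tables and all 9 passed the filter on low counts, which left 11711 genes.

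RNA was sequenced from lung ILC2s of 6 week old mice, in 2 libraries of WT C57BL/6 animals and 2 of ICAM-1 KO animals. The ICAM-1 KO strain is, by its name, congenic on C57BL/6 and carries the constitutive tm1Jcgr allele of Icam1. Whether the groups were littermates is not given in the sources used here. All mice of both groups had received 3 intranasal doses of 0.5 µg rmIL-33, lungs were taken on day 4, and each library is a pool of 4 mice. The spread between animals therefore cannot be seen, and p-values measure only the spread between these pools. With 2 pools per group, the test takes part of each gene's spread from the other genes. ILC2s had been sorted as CD45+, lineage-negative, ST2+ and CD127+ cells, with CD3ε, CD4, CD5, TCRβ, CD11b and CD11c among the lineage markers. Icam1 RNA stood at 97.6 and 110.0 normalized counts in the ICAM-1 KO libraries and at 85.2 and 83.3 in WT, so it was not reduced there, and a gene on the other strand overlaps it. The genotype behind each direction given here therefore rests on the labels, and the ICAM-1 KO libraries are called KO-labelled.

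The libraries held 24796148 to 28782471 estimated counts on genes. The normalized count is the authors' value, the estimated count plus 1 scaled so that all libraries share the same upper quartile. The 8 core ILC2 markers Gata3, Rora, Il1rl1, Il7r, Il2ra, Klrg1, Thy1 and Bcl11b summed to 3209.6 and 3385.1 normalized counts in WT and to 3198.9 and 3371.0 in the KO-labelled libraries, and these ranges overlap. The full list of 18 ILC2 genes, which adds cytokine and effector genes, summed to 9034.9 and 9576.9 in WT and to 7340.9 and 7555.5 in the KO-labelled libraries, without overlap. Of the 18, 1 rose (Klrg1), 6 fell (Il2ra, Id2, Il5, Il13, Arg1 and Hs3st1) and 11 did not pass the test. Markers of cells that the gate is meant to exclude were also read, and 52 of 80 tested were higher in the KO-labelled libraries and 3 lower. Of all genes tested, 8.8% were higher and 4.97% lower. Some markers, among them Lamp3, Slc34a2, Sftpb, Mertk and Marco, passed the filter on low counts only through the KO-labelled libraries, and Epx only through WT. The filter favoured the direction of such genes. All 18 endothelium markers rose, as did 9 of 12 tested for alveolar macrophages, 8 of 13 for monocytes and macrophages, 8 of 12 for alveolar epithelium and 6 of 11 for T cells. Of 5 eosinophil genes tested 3 rose (Ccr3, Il5ra and Alox15) and 2 fell (Epx and Prg2). Epx fell from 1027 and 739 counts in WT to 0 in both KO-labelled libraries, and Prg2 from 1583 and 1041 to 33 and 118. Of 8 mesenchyme genes tested 1 fell (Npnt), and 7, all with a positive log2 fold change, did not pass. The median over the 8 was 0.98. Npnt held 159.1 and 174.7 of the list's summed 180.9 and 231.6 normalized counts in WT. The single adipocyte gene tested did not pass.

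PPARγ and RXR bind DNA at direct repeats of AGGTCA spaced by 1 base. RefSeq promoter sequences (GRCm38.p6, 250 bases before to 50 after an RNA start) were at hand for 4 of the 9 genes, Pparg, Cd36, Plin2 and Acsl4, with 6 starts in all. The full repeat, with any base as the spacer and on either strand, was in none of these 6 windows and in 0.0396% of all 32851 promoters. The single AGGTCA was in 4 of the 6, belonging to 3 genes, and in 16.3% of all promoters. The windows are shown so that a reader can see which letters were matched in Pparg itself and in Cd36 and Plin2, known targets of PPARγ, with the match in capitals, as AGGTCA or as TGACCT where it lies on the other strand.
Pparg, 28 bases before a start, chr6:115361104-115361133 plus strand: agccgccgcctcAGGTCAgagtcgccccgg
Pparg, 9 bases before a start, chr6:115362319-115362348 plus strand: ttttatataagggacgcgaggAGGTCAaga
Cd36, 228 bases before a start, chr5:17836107-17836136 minus strand: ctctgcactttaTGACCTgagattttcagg
Plin2, 218 bases before a start, chr4:86670260-86670289 minus strand: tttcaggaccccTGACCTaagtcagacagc
A match in these letters is a description and not a binding site, and no binding was measured in these libraries.

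Cd36, Lpl and Fabp4 were higher in the KO-labelled libraries, by 3.06-fold, 2.42-fold and 4.99-fold. Pparg and Fabp5 were lower, by 1.55-fold and 1.35-fold. Acsl4, Dgat1, Dgat2 and Plin2 did not reach the threshold, a Benjamini-Hochberg adjusted p of 0.05 in the quasi-likelihood test of edgeR, which does not show that they were equal. Of all genes tested, 13.8% passed this threshold, 8.8% higher and 4.97% lower, against 5 of the 9 members, 3 higher and 2 lower. The members were chosen with earlier results of these data known, so setting these shares side by side is a description only. A change of at least 2-fold as well was found for 5.47% of all genes, 4.94% higher and 0.538% lower, against 3 members, all higher. Among them, Fabp4 passed the filter on low counts only through the KO-labelled libraries, so its direction was favoured by the filter. Without adjustment, 30.2% of all genes and 6 of the 9 members had a p under 0.05. The median log2 fold change was -0.12 over the 9 members and 0.01 over all genes tested. Both libraries of a group lay outside the range of the other group for 6 of the 9 members, 3 higher and 3 lower, and for 59.5% of all genes, 28.3% higher and 31.3% lower. In bulk RNA, more cells of a type and more RNA of a gene per cell cannot be told apart.

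**Figure D1:**
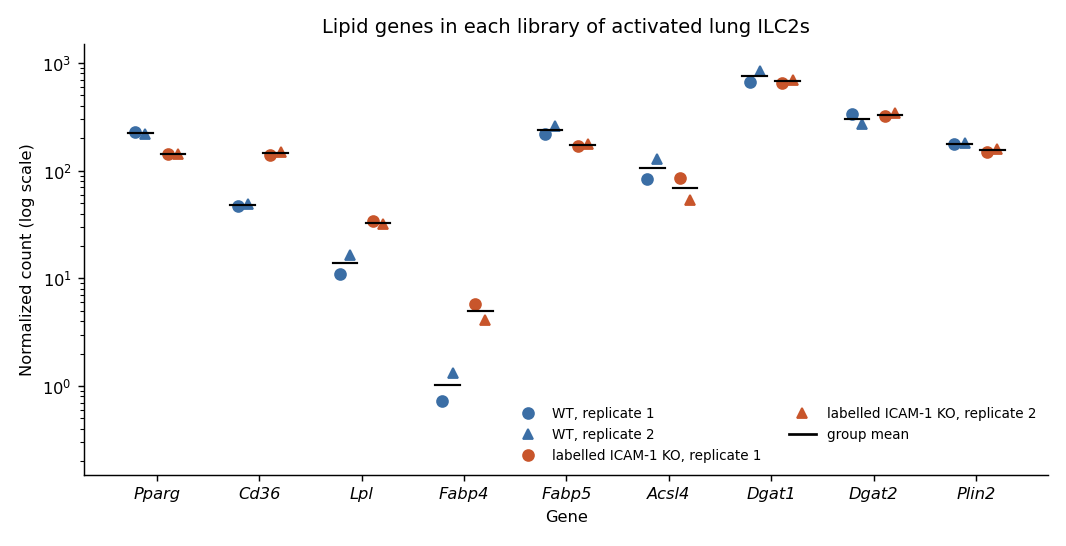
Normalized count (log axis) of the 9 lipid genes in each of the 4 libraries, with circles for replicate 1, triangles for replicate 2 and a bar for each group mean. Cd36, Lpl and Fabp4 lie higher in both KO-labelled libraries (orange) than in both WT libraries (blue), and Pparg, Fabp5 and Plin2 lie lower.

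Pparg, the receptor gene, spans bases 115360951 to 115490399 of chromosome 6 (mm10, plus strand). Its estimated counts were 6915 and 6979 for WT, against 4135 and 4451 for the KO-labelled libraries. In normalized counts these were 228.3 and 221.0 in WT and 143.6 and 141.8 in the KO-labelled libraries. Replicates were close in both groups, and the groups did not overlap. WT averaged 224.7 ± 5.16 and the KO-labelled libraries 142.7 ± 1.22 (SD, n = 2 each), and Pparg fell by 0.63 on the log2 scale (SE 0.0863, 95% interval -0.82 to -0.43, adjusted p = 0.00312). Leaving out any of the 4 libraries kept the log2 fold change between -0.65 and -0.60, with an adjusted p of at most 0.0239. Relative to the 8 core ILC2 markers, Pparg stood at 0.0711 and 0.0653 in WT and at 0.0449 and 0.0421 in the KO-labelled libraries. Relative to all 18 ILC2 genes it stood at 0.0253 and 0.0231 in WT and at 0.0196 and 0.0188 in the KO-labelled libraries, a smaller difference that also did not overlap. Reads are summed over the gene, so the γ1 and γ2 forms, which start at different promoters, were not told apart.

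Of the genes tested outside the 9, those whose log2 normalized counts followed Pparg most closely over the 4 libraries were Nhp2, Nfatc2ip and Rps26-ps1. After each gene was centred on its own mean, the root mean square difference from Pparg was 0.00946, 0.00964 and 0.0111 on the log2 scale. Nhp2, which encodes a protein of box H/ACA ribonucleoproteins, had normalized counts of 165.0 and 162.0 in WT and 103.9 and 102.2 in the KO-labelled libraries (adjusted p = 0.00346). Nfatc2ip and Rps26-ps1, at under 20 normalized counts in every library, did not pass (adjusted p = 0.222 and 0.0822), and Rps26-ps1 is a pseudogene that can share reads with Rps26. With 4 libraries such closeness is a description only.

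Cd36, the scavenger receptor that helps long-chain fatty acids enter cells and is abundant on capillary endothelium and macrophages, lies on chromosome 5 from 17781690 to 17888801 on the minus strand. Its normalized count was 47.0 and 49.2 in WT and 139.9 and 148.7 in the KO-labelled libraries, from 1422 and 1554 against 4029 and 4667 counts. Both KO-labelled libraries were far above both WT libraries. The mean rose from 48.1 ± 1.6 (SD, n = 2) to 144.3 ± 6.25, a log2 fold change of 1.61 (SE 0.105, 95% interval 1.38 to 1.85, adjusted p = 0.000131). Leaving out any of the 4 libraries gave 1.56 to 1.67. In WT there was 0.206 and 0.223 of Cd36 for each normalized count of Pparg, and in the KO-labelled libraries 0.974 and 1.05.

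Lpl, the lipase that frees fatty acids from circulating lipoproteins, lies on chromosome 8 from 68880491 to 68907448 on the plus strand. It was at 11.0 and 16.6 normalized counts in WT and at 34.1 and 31.7 in the KO-labelled libraries, with no overlap between the groups. The log2 fold change was 1.27 (SE 0.213, 95% interval 0.79 to 1.76, adjusted p = 0.0073). It was 1.01 without WT 1 and 1.60 without WT 2, and the call held in both. Gpihbp1, which encodes the endothelial protein that holds LPL on the capillary wall, rose with it, from 5.84 and 7.57 normalized counts to 23.5 and 32.4 (log2 fold change 2.09, adjusted p = 0.00192).

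Fabp4, the fatty acid-binding protein of adipocytes, macrophages and capillary endothelium, had the lowest counts of the 9 genes. It lies on chromosome 3 from 10204088 to 10208576 on the minus strand and held 21 and 41 counts in WT, against 167 and 129 in the KO-labelled libraries. Of all genes tested, 97.2% had a higher normalized count. Fabp4 passed the filter on low counts, which asks for a summed normalized count of at least 10, only through the KO-labelled libraries. In normalized counts it rose from 0.726 and 1.33 to 5.83 and 4.14, a log2 fold change of 2.32 (SE 0.495, 95% interval 1.2 to 3.44, adjusted p = 0.0179), the widest interval of the 9. The adjusted p was 0.0853 without WT 1, 0.0551 without WT 2 and 0.0674 when no filter on low counts was used.

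Fabp5, the relative that carries fatty acids in lymphocytes and epithelium, lies on the same chromosome from 10012548 to 10016607 on the plus strand and was common, with 6598 and 8149 counts in WT and 4899 and 5537 in the KO-labelled libraries. Its normalized counts were 217.9 and 258.1 in WT and 170.1 and 176.4 in the KO-labelled libraries. The groups did not overlap, but the WT libraries were further apart than the others. Relative to the 8 core ILC2 markers, Fabp5 stood at 0.0679 and 0.0762 in WT and at 0.0532 and 0.0523 in the KO-labelled libraries. Relative to all 18 ILC2 genes, whose sum itself fell, Fabp5 stood at 0.0241 and 0.0269 in WT. In the KO-labelled libraries it was at 0.0232 and 0.0234, a smaller difference that also did not overlap. Its log2 fold change was -0.43 (SE 0.104, 95% interval -0.67 to -0.20, adjusted p = 0.028). The adjusted p was 0.138 without WT 2, 0.0614 without KO-labelled library 1 and 0.0741 without a filter on low counts. There were 300.0 and 194.1 normalized counts of Fabp5 for each of Fabp4 in WT, and 29.2 and 42.6 in the KO-labelled libraries. A pair of processed pseudogenes, Gm6166 and Gm14328, matched the Fabp5 transcript over 409 and 408 bases at 98.3% and 97.3% identity and could share reads with it. Together they held 39.1 to 109.2 counts per library, which is small beside Fabp5. No other gene matched the transcripts of the other members this well, apart from Gm12551 for Plin2 with at most 12.9 counts.

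The genes that rose did so in the libraries in which endothelium, macrophage, alveolar epithelium and T cell markers rose. Summed alveolar epithelium markers were 173.2 and 160.7 in WT and 649.9 and 1162.6 in the KO-labelled libraries. For T cell markers the sums were 383.2 and 515.6 against 847.2 and 1024.7, and ratios to these sums were not taken. The summed normalized count of the 18 endothelium markers was 265.5 and 271.7 in WT and 773.8 and 848.0 in the KO-labelled libraries. Cd36 divided by this sum was 0.177 and 0.181 in WT and 0.181 and 0.175 in the KO-labelled libraries, so that the ratio hardly differed among the 4 libraries. It depends on the markers summed. Pecam1 held the most of this sum, 48.1 and 54.5 in WT and 103.4 and 108.3 in the KO-labelled libraries. It rose least of the 18 (log2 fold change 1.07), and ratios without it were not taken. Lpl divided by the same sum was 0.0415 and 0.0612 in WT and 0.044 and 0.0373 in the KO-labelled libraries. For Fabp4 it was 0.00274 and 0.00489 against 0.00754 and 0.00488. In each of these ratios the groups overlapped. For Fabp4 they did so only narrowly, at 0.00489 in WT 2 and 0.00488 in KO-labelled library 2, and its WT values rest on 21 and 41 counts.

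The summed alveolar macrophage markers were 274.8 and 521.2 in WT and 1204.7 and 1617.2 in the KO-labelled libraries. Chil3 alone, a chitinase-like gene that some ILC2s also express, made up 76.8% to 88.0% of this sum. Cd36 divided by the whole sum was 0.171 and 0.0945 in WT against 0.116 and 0.092. Without Chil3, a choice made after seeing its share, it was 0.737 and 0.5 against 0.917 and 0.767, so the direction of the ratio depends on this gene. Lpl divided by the whole sum was 0.0401 and 0.0319 in WT against 0.0283 and 0.0196, and without Chil3 it was 0.173 and 0.169 against 0.223 and 0.163. For Fabp4 the ratio was 0.00264 and 0.00255 against 0.00484 and 0.00256, and without Chil3 it was 0.0114 and 0.0135 against 0.0382 and 0.0214.

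The summed markers of monocytes and macrophages, in which Ccr2 had the highest normalized count in WT and Lyz2 in the KO-labelled libraries, were 552.2 and 525.3 against 894.5 and 1117.6. Cd36 divided by this sum was 0.0851 and 0.0937 in WT against 0.156 and 0.133. For Lpl it was 0.02 and 0.0317 against 0.0381 and 0.0283, and for Fabp4 0.00132 and 0.00253 against 0.00652 and 0.00371. Ccr2 alone held 253.8 and 235.6 of this sum in WT and 323.5 and 278.6 in the KO-labelled libraries. These ratios depend on it, and ratios without it were not taken. Adipocytes share Fabp4, Cd36 and Lpl, and of the 7 genes of their list in the counts table only Lipe, at 243 to 347 counts, was tested. Adipoq was at 0 to 2 counts, Retn at 0 to 2, Plin1 at 0 to 12 and Cfd at 0 in every library. Cidec, which is also on the alveolar macrophage list, was at 0 and 2 counts in WT and 31 and 32 in the KO-labelled libraries, and Cebpa was at 22 and 4 against 59 and 59. Pparg and Fabp5 moved against the endothelium and both macrophage sums. The part of other cells in the changes of Cd36, Lpl and Fabp4 was not tested, and sorted cells of a known type were not analysed here.

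**Figure D2:**
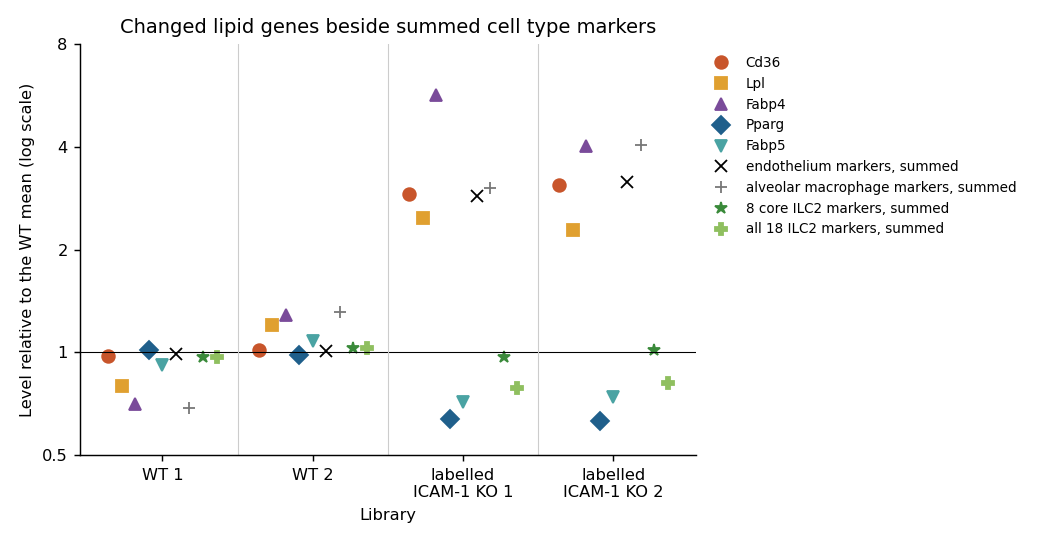
Level of the 5 changed lipid genes and of 4 sums of marker genes in each library, relative to the WT mean (log axis). In the KO-labelled libraries Cd36 lies at 2.91 and 3.09, the endothelium markers at 2.88 and 3.16 and the alveolar macrophage markers at 3.03 and 4.06. The 8 core ILC2 markers lie at 0.97 and 1.02, all 18 ILC2 markers at 0.789 and 0.812, and Pparg at 0.639 and 0.631.

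Aplnr, Eaf2 and Hspa12b followed Fabp4 most closely over the 4 libraries, with root mean square differences of 0.179, 0.181 and 0.189 on the centred log2 scale. Aplnr, which encodes the apelin receptor, was at 0.858 and 1.65 normalized counts in WT and at 7.15 and 3.79 in the KO-labelled libraries (log2 fold change 2.15, adjusted p = 0.0311). Hspa12b, which encodes a heat shock protein relative known from endothelial cells, had a log2 fold change of 2.17 (adjusted p = 0.0181). Eaf2, an elongation factor partner, had one of 2.06 (adjusted p = 0.00961). All 3 had under 5 normalized counts in both WT libraries. Aplnr and Hspa12b passed the filter on low counts only through the KO-labelled libraries. The 3 genes were picked for their likeness to Fabp4, so their direction and adjusted p are a description only.

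Acsl4 activates fatty acids, arachidonic acid above all, to acyl-CoA, and lies on chromosome X from 142317993 to 142390535 on the minus strand. It was uneven between replicates of both groups, at 83.5 and 127.8 normalized counts in WT and at 85.1 and 52.9 in the KO-labelled libraries. The groups overlapped and the log2 fold change was -0.59 (SE 0.235, 95% interval -1.13 to -0.06, unadjusted p = 0.0325, adjusted p = 0.126). Without KO-labelled library 1 it was -0.96 with an adjusted p of 0.001, and without the WT 2 library it was -0.25 with an adjusted p of 0.563. Acsl5, a mitochondrial relative, had the highest normalized count of the acyl-CoA synthetases, at 242.6 and 241.6 normalized counts in WT and 232.9 and 223.6 in the KO-labelled libraries (log2 fold change -0.06, adjusted p = 0.682).

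Dgat1 and Dgat2 encode unrelated enzymes that both join the last fatty acid to diacylglycerol. Dgat1, on chromosome 15 from 76502015 to 76511953 on the minus strand, had the highest normalized count of the 9, and 1.16% of the genes tested had a higher one. Its normalized counts were 658.7 and 839.6 in WT and 649.5 and 701.7 in the KO-labelled libraries. The groups overlapped, and the log2 fold change was -0.12 with a 95% interval of -0.39 to 0.14 (adjusted p = 0.529). Dgat2, on chromosome 7 from 99153658 to 99182719 on the minus strand, was at 334.9 and 272.3 in WT and 320.4 and 339.4 in the KO-labelled libraries. The groups overlapped here too, with a log2 fold change of 0.15 and an interval of -0.10 to 0.39 (adjusted p = 0.404). A 2-fold change lay outside both intervals. In each library the pair made up 56.5% to 59.3% of the summed normalized count of the 9 genes.

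Plin2 encodes the droplet coat protein that is stable only on stored lipid. On chromosome 4 from 86648386 to 86670060 on the minus strand, it was at 177.1 and 179.4 normalized counts in WT and at 148.0 and 160.2 in the KO-labelled libraries. Both KO-labelled libraries lay below WT, but the difference did not pass the test (log2 fold change -0.18, SE 0.0922, 95% interval -0.39 to 0.03, adjusted p = 0.219). Hilpda, which encodes a droplet protein that restrains lipolysis and is known to respond to hypoxia, did pass, falling from 669.6 and 751.1 to 511.4 and 567.4 (log2 fold change -0.37, adjusted p = 0.0365).

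**Figure D3:**
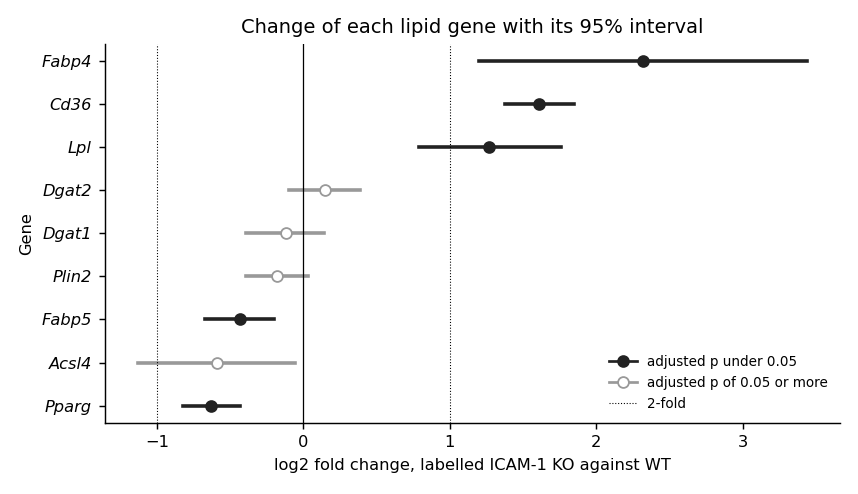
Log2 fold change of each of the 9 genes between the KO-labelled libraries and WT, with its 95% interval from edgeR's quasi-likelihood fit. Filled points have an adjusted p under 0.05, and dotted lines mark 2-fold. The whole interval lies past 2-fold for Fabp4 and Cd36, and the intervals of Dgat1, Dgat2 and Plin2 hold 0.

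Levels were set beside each other per kilobase of summed exon length. In WT the order from the highest was Dgat1 at 245.2 ± 41.9 normalized counts per kilobase (SD, n = 2 libraries), Dgat2 at 98.5 ± 14.4, Pparg at 76.1 ± 1.75, Fabp5 at 66.7 ± 7.97, Plin2 at 50.8 ± 0.461, Acsl4 at 19.5 ± 5.79, Cd36 at 13.4 ± 0.445, Lpl at 1.32 ± 0.378 and Fabp4 at 0.229 ± 0.0951. No neighbours in this order overlapped between their WT libraries. In the KO-labelled libraries, Fabp5, at 48.6 ± 1.26, and Pparg, at 48.3 ± 0.413, overlapped, and Cd36, at 40.2 ± 1.74, lay above Acsl4, at 12.8 ± 4.22, and just under Plin2, at 43.9 ± 2.46. The summed exons of Fabp4 and Fabp5 are mostly retained introns. Per kilobase of the longest protein-coding transcript, a scale added after seeing this, Fabp5 came second in WT at 241.1 ± 28.8, Dgat2 at 134.2 ± 19.6 and Pparg at 105.7 ± 2.43, and Fabp4 was still last at 1.15 ± 0.476.

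Beyond the 9 genes, 106 genes of the same pathway were listed by role, of which 97 are in the counts table and 69 were tested. Of these, 6 rose and 2 fell by the same edgeR test, against 8.8% and 4.97% of all genes tested, and 61 did not pass. Their median log2 fold change was -0.02. Keeping genes with low counts gave 2 that rose and 0 that fell, and leaving out either WT 1 or WT 2 gave 3 and 1.

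Of 11 partners and coregulators of PPARγ tested, 3 rose, against 8.8% of all genes tested. Rxra, the RXR that pairs with PPARγ and is abundant in myeloid cells, rose from 7.76 and 9.15 normalized counts to 18.7 and 21.8 (log2 fold change 1.29, adjusted p = 0.00945). Rxrb, another RXR gene, did not differ beyond its error (48.6 and 50.1 against 48.1 and 49.1, adjusted p = 0.988). Cebpd, a transcription factor of early adipogenesis and inflammation, had a log2 fold change of 1.08 (adjusted p = 0.0437). Nrip1, a corepressor with the highest normalized count of the group, rose from 405.0 and 349.6 to 482.5 and 453.2 (log2 fold change 0.34, adjusted p = 0.047). The corepressor gene Ncor1 was at 379.2 and 355.9 in WT against 351.5 and 354.3 (adjusted p = 0.836). Ppara was at 0 counts in all 4 libraries, which allows up to 3 counts in each, and Ppard was at 11 to 49 counts and was not tested.

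In fatty acid uptake and activation, 1 of 13 genes rose and 1 fell, against 8.8% and 4.97% of all genes tested. Lrp1, a large lipoprotein receptor of macrophages and mesenchyme, rose from 4.23 and 4.94 to 11.7 and 16.7 (log2 fold change 1.67, adjusted p = 0.0107). Dbi, which encodes the acyl-CoA-binding protein, fell from 189.9 and 227.5 to 143.9 and 146.6 (log2 fold change -0.50, adjusted p = 0.0183). The other binding proteins Fabp1 and Fabp3 held at most 24 and 9 counts in a library, so Fabp5 was the main member of its family that was read. Gpihbp1 was the single gene of 5 to pass among the partners and relatives of LPL. The secretion factor genes Lmf2 and Sel1l, those with the highest normalized counts of that group, had log2 fold changes of -0.07 and 0.38 (adjusted p = 0.716 and 0.0776).

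Of 11 genes of triglyceride and sterol ester synthesis, Lpin2, a phosphatidate phosphatase, rose from 19.6 and 15.3 to 32.9 and 25.8 (log2 fold change 0.78, adjusted p = 0.0369), while Soat1 and Gpat4, with the highest normalized counts of the group, did not pass (log2 fold changes 0.23 and -0.14, adjusted p = 0.116 and 0.43). Hilpda was the 1 of 5 droplet genes that passed. None of the 5 lipolysis genes tested passed, among them Pnpla2, the first lipase of stored triglyceride, at 64.9 and 57.9 against 63.0 and 63.9, and Lipa, the lysosomal lipase (adjusted p = 0.2). None of the 19 genes of fatty acid oxidation passed either, where 13.8% of all genes tested did. Of the 19, 14 had a negative and 5 a positive log2 fold change, with a median of -0.12 against 0.01 over all genes tested. Acadl and Hadhb, with the highest normalized counts of the group, had log2 fold changes of -0.19 and -0.03 (adjusted p = 0.182 and 0.874), and Cpt1a, the gate of mitochondrial uptake, one of -0.12 with an interval of -0.42 to 0.17.

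**Figure D4:**
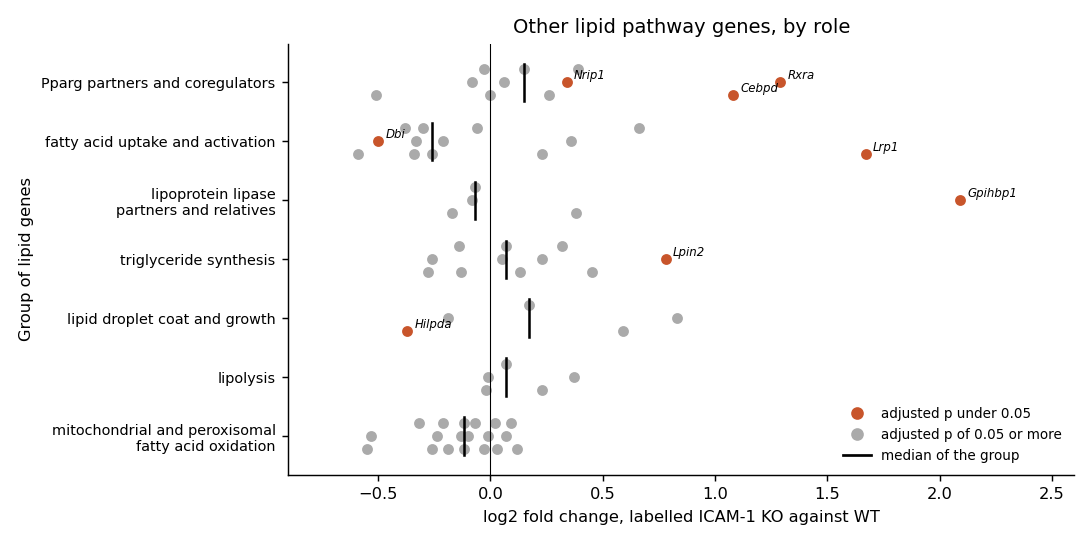
Log2 fold change of the 69 tested pathway genes beyond the 9, by role, with those at an adjusted p under 0.05 in orange and named, and the median of each group as a bar. The 8 named genes lie among 61 that did not pass, and none of the lipolysis or oxidation genes is named.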

How the data were processed

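Lung ILC2 RNA of 2 WT and 2 ICAM-1 KO pools (groups and replicate numbers per the labels) was converted to cDNA with a SMARTer low-input kit and sequenced on a NextSeq. The authors used STAR, mm10 and the GENCODE M20 gene models, and deposited expected counts per gene, estimated in Partek, where reads fitting several genes are split (64.0% are whole numbers, to a tolerance of 1e-06). The authors also deposited a normalized signal, the count plus 1 times 1 factor per library (upper quartile). Whether counting used strand is not given in the sources used here. Libraries held 24796148 to 28782471 counts. Reads carry no molecular identifiers, so count limits cover counting error only.

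Counts were rounded and tested with edgeR 4.0.16 (upper quartile factors, glmQLFit with legacy set to FALSE, glmQLFTest, no covariate) in R 4.3.3. As in the study's methods, genes whose normalized counts averaged under 1 or summed to under 10 were left out. Benjamini-Hochberg adjustment ran over the 11711 genes left. SEs come from the log2 fold change and its F statistic. The fit was tested on simulated data. Partek's GSA was not run. Alternatives were TMM factors, DESeq2 1.42.0, limma 3.58.1 on the log2 normalized count, no filter, filterByExpr, the older quasi-likelihood form, a replicate block, each library left out, and other gene lengths. Exon and transcript lengths are from GENCODE M21. Copies of members are transcripts with at least 95% identity over at least 200 bases.

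The members and gene lists were chosen with earlier results of these data known. Named are the 9 members, Icam1, the 2 most abundant and up to 3 genes with the smallest adjusted p under 0.05 of each lipid list, leading markers, and the 3 genes most like Pparg and Fabp4. Rxrb, Ppara, Ppard, Fabp1, Fabp3, Cpt1a and the untested adipocyte genes were named after their values were seen. So were the markers Lamp3, Slc34a2, Sftpb, Mertk, Marco, Il5ra and Alox15.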

Additional observations from a re-analysis of the deposited data

How the results depend on the processing

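The directions and calls of Pparg, Cd36 and Lpl were the same under all 11 alternatives, and those of Dgat2 and Plin2, never called, were too. Fabp4 and Fabp5 lost their calls when low genes were kept, with 22158 tested (log2 fold changes 2.27 and -0.48, adjusted p = 0.0674 and 0.0741). Leaving out single libraries, where the lone library of a group is assumed to vary like the pair, gave log2 fold changes of 1.95 to 2.85 for Fabp4, -0.55 to -0.30 for Fabp5, -0.96 to -0.25 for Acsl4 and -0.29 to 0.06 for Dgat1, which changed sign without WT 2.

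Over all genes, 1030 were higher and 582 lower at an adjusted p under 0.05, and 578 and 63 with a change of at least 2-fold as well. Without a filter these were 334, 201, 273 and 39, and 2 lipid pathway genes were higher, 0 lower and 34 marker genes of other cells higher, against 6, 2 and 52. Fabp4 and Fabp5 also lost their calls when single libraries were left out, and Acsl4 gained one without ICAM-1 KO 1. With DESeq2, 930 genes and 4 lipid pathway genes were lower. With each library left out, 479 to 948 genes were higher and 158 to 388 lower, 338 to 596 and 48 to 80 of them by at least 2-fold, and 3 to 6 lipid pathway genes were higher and 1 to 3 lower. With the longest transcript 2, and with the longest protein-coding transcript 3, of the 9 members changed place in the WT order of levels. Among the fits without a library, the lowest counts came without WT 1 or WT 2. The causes of these shifts were not tested. Fabp4, with 21 and 41 counts in WT, is the member whose depth limits it most.

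The replicate numbers are shared only as numbers, since the animals differ, and same-numbered libraries did not deviate together (correlation of deviations -0.058). With the replicate block, 1077 genes were higher and 638 lower, the log2 fold changes of Pparg and Cd36 were -0.63 and 1.61, and no call on a member changed.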
